A study of Mus musculus with 6 samples.

Results

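The glycolysis and hypoxia factors are 44 mouse genes: 30 that carry glucose to lactate or set the pace of that pathway, and 14 that form, restrain or answer to the hypoxia-inducible factors (HIFs). They were taken from a list of gene names, and each was read from the probeset, a group of array probes summarised as 1 value, that carries its symbol alone and has the highest mean over all arrays. 40 of the 44 were measured, of 19933 genes measured in the same way. Gpi1, which encodes phosphoglucose isomerase, Pfkfb1 and Eno1 had no probeset used here, and Gapdh appeared only on probesets that name several genes.

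The arrays measured RNA of NCU10K, an immortalized mouse neural crest cell line. Neural crest cells are the migratory embryonic cells that give rise to peripheral neurons and glia, pigment cells and the mesenchyme of the face. 3 cultures received a Nedd4 siRNA and 3 a low GC control siRNA, both with RNAimax in DMEM with 10% FCS, and RNA was taken after 48 h. Nedd4 encodes a ubiquitin ligase, the study asked what its loss changes in this line, and the arrays hold 1 siRNA against Nedd4, 1 cell line and no rescue, so an effect of the siRNA on other transcripts and an effect of Nedd4 cannot be told apart.

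Glycolysis splits glucose into pyruvate, which is reduced to lactate or passed to mitochondria through pyruvate dehydrogenase. HIF proteins are pairs of an alpha subunit, which prolyl hydroxylases and the VHL ubiquitin ligase remove when oxygen is plentiful, and a stable ARNT subunit, and they switch on many glycolytic genes. Because the alpha subunits are controlled mainly as proteins, their mRNA is no measure of HIF activity.

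Values are the deposited log2 expression levels, so a difference of 1 is a doubling, and each difference is Nedd4 siRNA minus control siRNA. A gene was called changed where the adjusted p of limma, a linear model fitted over all probesets, was under 0.05. Nedd4 mRNA was at 10.45, 10.94 and 10.68 on the Nedd4 siRNA arrays, against 12.24, 12.35 and 12.34 on the control arrays, a difference of −1.62 (SE 0.12, limma adjusted p = 3.16e-06). Array medians lay between 6.28 and 6.35. Of the line's own markers, those of neural crest and Schwann cells, all 8 measured lay above the median of all probesets. Of the 8, 5 fell (62.5%) and 3 did not pass, beside 18.7% of all genes and 33.4% of genes that bright called in either direction. Erbb3 (−1.14) had the largest fall, and Sox10 (−0.43) was another of the 5. The summed linear level of the 8 was 6941 to 7915 on the Nedd4 siRNA arrays, against 9146 to 10160 on the control arrays. Of 10 smooth muscle and fibroblast markers 3 rose (30%), Pdgfra, Pdgfrb and Dcn, and 7 did not pass. The 3 were among the 6 above the median, beside 33.4% of genes that bright called in either direction. The summed level of the 10 was 4796 to 5054 on the Nedd4 siRNA arrays, against 3439 to 3849 on the control arrays. Pdgfrb, the brightest of them with means of 11.71 and 11.17, weighs most in this sum. The part of these marker shifts in the results that follow was not tested, and in such bulk RNA fewer cells of a type and less RNA per cell cannot be told apart.

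After Nedd4 knockdown, 14 of the 40 measured genes changed, 7 higher and 7 lower, and the pathway did not move one way. The largest rises were Bpgm, Epas1 and Pfkfb3, and the largest falls were Pgam1, Hif1a and Pfkl. Of all 19933 genes, 18.7% changed, 9.62% higher and 9.13% lower. Glycolytic genes are bright on these arrays, and 30 of the 40 had a mean above the median of all probesets. Of those 30, 12 changed, 6 in each direction, beside 33.4% of all genes that bright, a share near the background. The median difference was −0.04 over the 40 genes, beside −0.017 over all genes, and its median size was 0.19, beside 0.11 over all genes and 0.21 over the brighter ones. The arrays of the groups did not overlap for 19 of the 40, beside 31.7% of all genes. At an unadjusted limma p under 0.05 stood 18 of the 40, beside 28.4% of all genes. The methods' t-test, which does not share the spread between genes, called 6 of the 40 (Pfkfb3, Bpgm, Pdk4, Epas1 and Vegfa higher and Hif1a lower), beside 9.05% of all genes. For these last counts no share of the brighter genes was computed, so they do not show an excess over genes of like level. The plot of differences in pathway order shows called isozymes next to ones that did not pass at the same step.

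**Figure D1:**
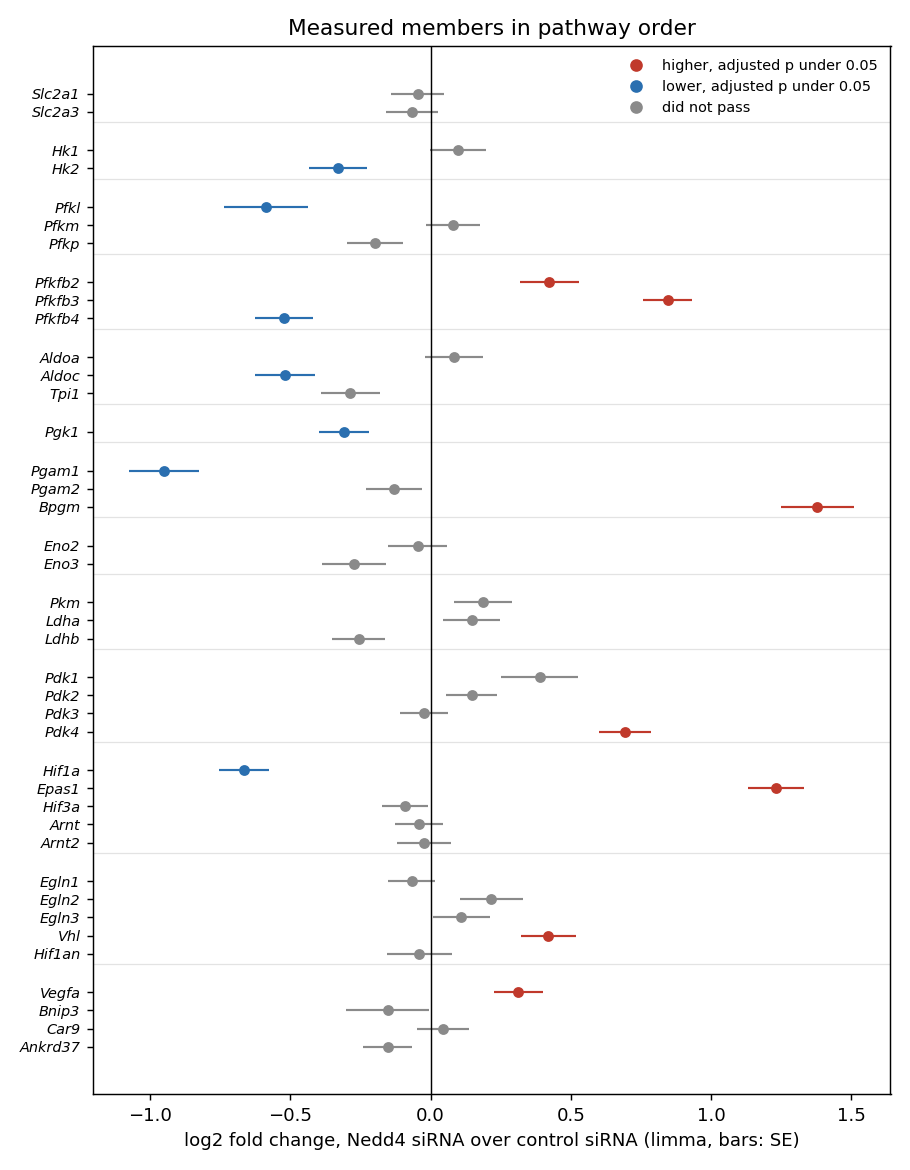
Difference in log2 expression, Nedd4 siRNA minus control siRNA, of the 40 measured genes in pathway order from glucose transporters to HIF targets (points, with bars of 1 SE from limma, n = 3 arrays per group). The values run from −0.95 for Pgam1 to 1.38 for Bpgm, with 7 genes higher and 7 lower at an adjusted p under 0.05.

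HIF complexes bind DNA at a short core, most often ACGTG, and Pgk1 and Ldha are textbook carriers of such sites. To show what the genes share in sequence, the 250 bases before each annotated start were searched for ACGTG on both strands (CACGT when read on the printed strand), in RefSeq promoters of GRCm38.p6. 38 of the 40 measured genes matched the promoter table, all but Slc2a3 and Epas1. A gene with several starts was counted once if any of its windows held the letters, which applied to 12 of the 38. The letters stood in 20 of the 38 (52.6%), beside 18.5% of the 27025 genes in the table and 20.9% of the 15610 of them measured on these arrays. Counted by window, they stood in 24 of 54 windows of these genes (44.4%), beside 18.4% of the 19173 windows of all measured genes. The palindrome CACGTG, an E-box that other factors bind and that holds ACGTG on both strands, stood in 7 of the 38 (18.4%), beside 8.11% of the measured genes. ACGTG was found in 3 of 6 genes that rose, 4 of 7 that fell and 13 of 25 that did not pass, so its presence did not separate the directions. These are matches of letters, not measured sites, and base composition was not matched. The list was made of glycolysis and HIF genes, with known HIF targets among them, so its high share is no independent result. 4 promoters of genes that changed and that of Ldha are printed 5′ to 3′ on the gene's strand, with the matched letters in capitals, overlapping matches joined. Pfkfb3 and Ldha have 2 starts each in the table, and the window with more matches is shown. Hif1a lies on the plus strand (chr12:73907617-73907866), as do Pgam1 (chr19:41911621-41911870), Pgk1 (chrX:106186850-106187099) and Ldha (chr7:46845554-46845803), and Pfkfb3 on the minus strand (chr2:11502091-11502340).
Hif1a: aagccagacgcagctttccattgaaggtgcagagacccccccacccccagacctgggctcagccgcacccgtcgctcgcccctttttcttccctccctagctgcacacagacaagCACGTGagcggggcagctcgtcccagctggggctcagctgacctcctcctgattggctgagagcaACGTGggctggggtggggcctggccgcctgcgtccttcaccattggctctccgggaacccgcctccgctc
Pgam1: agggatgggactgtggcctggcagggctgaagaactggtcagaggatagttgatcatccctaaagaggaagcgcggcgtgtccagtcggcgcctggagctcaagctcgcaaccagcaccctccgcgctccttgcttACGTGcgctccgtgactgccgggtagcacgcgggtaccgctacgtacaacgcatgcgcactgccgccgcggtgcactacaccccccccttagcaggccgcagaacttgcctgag
Pgk1: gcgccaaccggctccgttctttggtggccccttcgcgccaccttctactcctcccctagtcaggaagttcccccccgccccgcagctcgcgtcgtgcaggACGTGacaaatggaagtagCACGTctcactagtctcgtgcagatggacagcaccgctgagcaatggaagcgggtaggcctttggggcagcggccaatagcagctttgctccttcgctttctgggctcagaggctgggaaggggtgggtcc
Pfkfb3: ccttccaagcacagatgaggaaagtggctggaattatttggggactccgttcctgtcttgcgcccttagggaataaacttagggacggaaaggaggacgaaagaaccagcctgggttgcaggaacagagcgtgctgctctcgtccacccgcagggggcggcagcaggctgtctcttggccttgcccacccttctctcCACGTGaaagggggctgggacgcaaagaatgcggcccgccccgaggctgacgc
Ldha: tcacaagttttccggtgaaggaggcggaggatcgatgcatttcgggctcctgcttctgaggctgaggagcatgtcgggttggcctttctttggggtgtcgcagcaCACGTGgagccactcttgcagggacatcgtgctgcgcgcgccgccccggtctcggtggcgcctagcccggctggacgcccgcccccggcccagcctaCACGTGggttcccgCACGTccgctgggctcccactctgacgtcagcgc

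At glucose entry and its first phosphorylation, Hk2 fell and Hk1 depended on the probeset, while neither transporter was called. The transporter genes Slc2a1 and Slc2a3, which encode GLUT1 and GLUT3, differed by −0.05 and −0.07. Hk2, the hexokinase that traps glucose as glucose 6-phosphate in growing and muscle cells, was at 6.91, 7.06 and 6.72 on the Nedd4 siRNA arrays, against 7.28, 7.29 and 7.11 on the control arrays. The groups did not overlap but came within 0.05 of each other. Hk2 fell by 0.33 (SE 0.10), and its limma adjusted p of 0.04997 was the highest of the 14. The call was lost when any 1 of 4 arrays was left out, Nedd4 siRNA replicate 1 or 3 or control siRNA replicate 1 or 2, with adjusted p up to 0.213.

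Hk1, the hexokinase found in most cells, is read differently by its 2 probesets. The brighter one, used by the rule, lists a single mRNA accession, was at 10.66, 10.66 and 10.84 on the Nedd4 siRNA arrays, against 10.46, 10.70 and 10.71 on the control arrays, and did not pass (0.10, SE 0.10, limma adjusted p = 0.660). The other probeset, which lists the RefSeq transcripts of Hk1, was at 8.96, 9.10 and 8.91 on the Nedd4 siRNA arrays, against 9.50, 9.54 and 9.45 on the control arrays. There the groups stood well apart, and Hk1 fell by 0.51 (SE 0.089, limma adjusted p = 0.00164). This probeset was singled out after its values were seen.

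A check of probeset numbers bears on this disagreement. Numbers on this array run along the chromosomes, and for 36 of the 40 genes at least 17 of the 20 probesets next in number belonged to genes of the same chromosome. For Hk1, Pgk1, Pgam1 and Bnip3 the brightest probeset was numbered among genes of another chromosome. Hk1 is on chromosome 10 in RefSeq, and 19 of the 20 neighbours of its brighter probeset were on chromosome 14, whereas all 20 neighbours of the other were on chromosome 10. With the probeset numbered among its own chromosome for these 4 genes, 14 of 40 were again called, 13 of them shared, with Hk1 gained as lower and Pgk1 lost. Which locus the probes were designed against is not given in the sources used here.

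Phosphofructokinase-1, the committed step of glycolysis, is built from 3 subunits, and only the liver-type subunit passed. Pfkl was at 7.83, 8.24 and 8.02 on the Nedd4 siRNA arrays, against 8.75, 8.85 and 8.25 on the control arrays. Nedd4 siRNA replicate 2 and control siRNA replicate 3 all but touched, at 8.24 and 8.25. Pfkl averaged 8.03 ± 0.21 after Nedd4 siRNA and 8.62 ± 0.32 after control siRNA (SD, n = 3 each), a difference of −0.59 (SE 0.15, limma adjusted p = 0.0170). The call did not hold without Nedd4 siRNA replicate 1, control siRNA replicate 1 or control siRNA replicate 2, with adjusted p up to 0.0905. Pfkp, the platelet-type subunit, was at 9.01, 9.10 and 8.88 on the Nedd4 siRNA arrays, against 9.13, 9.35 and 9.10 on the control arrays, an overlapping pair of groups (−0.20, limma adjusted p = 0.253). Pfkm, the muscle-type subunit, differed by 0.08 and did not pass.

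The PFKFB enzymes make and break fructose 2,6-bisphosphate, the strongest activator of phosphofructokinase-1, and all 3 measured changed, in opposite directions. Pfkfb3, the isozyme with the highest ratio of kinase to phosphatase activity, was at 8.08, 7.95 and 7.99 on the Nedd4 siRNA arrays, against 7.09, 7.23 and 7.16 on the control arrays. Every Nedd4 siRNA array stood more than 0.7 above every control array. Pfkfb3 averaged 8.01 ± 0.067 after Nedd4 siRNA and 7.16 ± 0.070 after control siRNA (SD, n = 3 each), 1.80-fold higher (0.85, SE 0.087, limma adjusted p = 3.85e-05). Pfkfb2, the heart isozyme, was at 8.18, 8.28 and 8.07 on the Nedd4 siRNA arrays, against 7.57, 7.92 and 7.77 on the control arrays, 0.42 higher (SE 0.11, limma adjusted p = 0.0150). Its groups were apart by 0.15, and the call was lost without Nedd4 siRNA replicate 1 or 2 or control siRNA replicate 1, with adjusted p up to 0.0611. Pfkfb4, first described in testis, went the other way, at 6.89, 7.03 and 6.88 on the Nedd4 siRNA arrays, against 7.42, 7.64 and 7.31 on the control arrays. Its groups did not overlap, and Pfkfb4 fell by 0.52 (SE 0.10, limma adjusted p = 0.00339), a call kept whichever array was left out.

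Aldolase and triosephosphate isomerase cleave and interconvert the 3-carbon sugars. Aldoc, the brain-type aldolase, was at 5.83, 6.07 and 5.94 on the Nedd4 siRNA arrays, against 6.38, 6.66 and 6.36 on the control arrays, below the median of all probesets in mean level. The groups did not overlap, and Aldoc fell by 0.52 (SE 0.11, limma adjusted p = 0.00447). Aldoa, the aldolase of muscle and most growing cells, differed by 0.08 and did not pass. Tpi1, triosephosphate isomerase, was at 10.18, 10.54 and 10.29 on the Nedd4 siRNA arrays, against 10.56, 10.71 and 10.60 on the control arrays. The highest Nedd4 siRNA array lay 0.02 below the lowest control array, and the difference of −0.29 (SE 0.10) did not pass (limma adjusted p = 0.0920).

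Pgk1, the phosphoglycerate kinase that makes the first ATP of the pathway, was at 12.18, 12.15 and 12.25 on the Nedd4 siRNA arrays, against 12.60, 12.51 and 12.40 on the control arrays. The groups did not overlap, and Pgk1 fell by 0.31 (SE 0.089, limma adjusted p = 0.0321). Of the 6 fits that left out 1 array, the call held in 1, without control siRNA replicate 3, and its adjusted p was highest, at 0.130, without Nedd4 siRNA replicate 1. Pgk1 has 3 probesets. A second one carried values identical to these, and the third, the only one numbered among genes of chromosome X where Pgk1 lies, gave −0.28 (SE 0.091, limma adjusted p = 0.0577). Gapdh, the step before it, was named on 25 probesets together with other genes, and none of them passed in limma or in the methods' t-test (0 at an unadjusted limma p under 0.05), with differences from −0.08 to 0.05.

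The phosphoglycerate mutase genes Bpgm and Pgam1 had the largest changes of the pathway, in opposite directions. Pgam1, the phosphoglycerate mutase of most tissues, was at 11.20, 11.42 and 11.38 on the Nedd4 siRNA arrays, against 12.06, 12.22 and 12.57 on the control arrays, 1.93-fold lower (−0.95, SE 0.12, limma adjusted p = 0.000218). The 2 other Pgam1 probesets, 1 of them numbered among genes of its own chromosome 19, had values identical to each other and also fell, by 0.90 (SE 0.11, limma adjusted p = 0.000131). Pgk1 and Pgam1 have near-identical copies elsewhere in the genome, so how much of each signal comes from the copies is uncertain. Bpgm, the bisphosphoglycerate mutase that makes 2,3-bisphosphoglycerate and is best known from red blood cells, was at 8.64, 8.65 and 8.41 on the Nedd4 siRNA arrays, against 6.88, 7.43 and 7.25 on the control arrays. The lowest Nedd4 siRNA array stood almost 1 above the highest control array. Bpgm was 2.60-fold higher (1.38, SE 0.13, limma adjusted p = 2.19e-05). Pgam2, the muscle mutase, differed by −0.13 and did not pass.

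**Figure D2:**
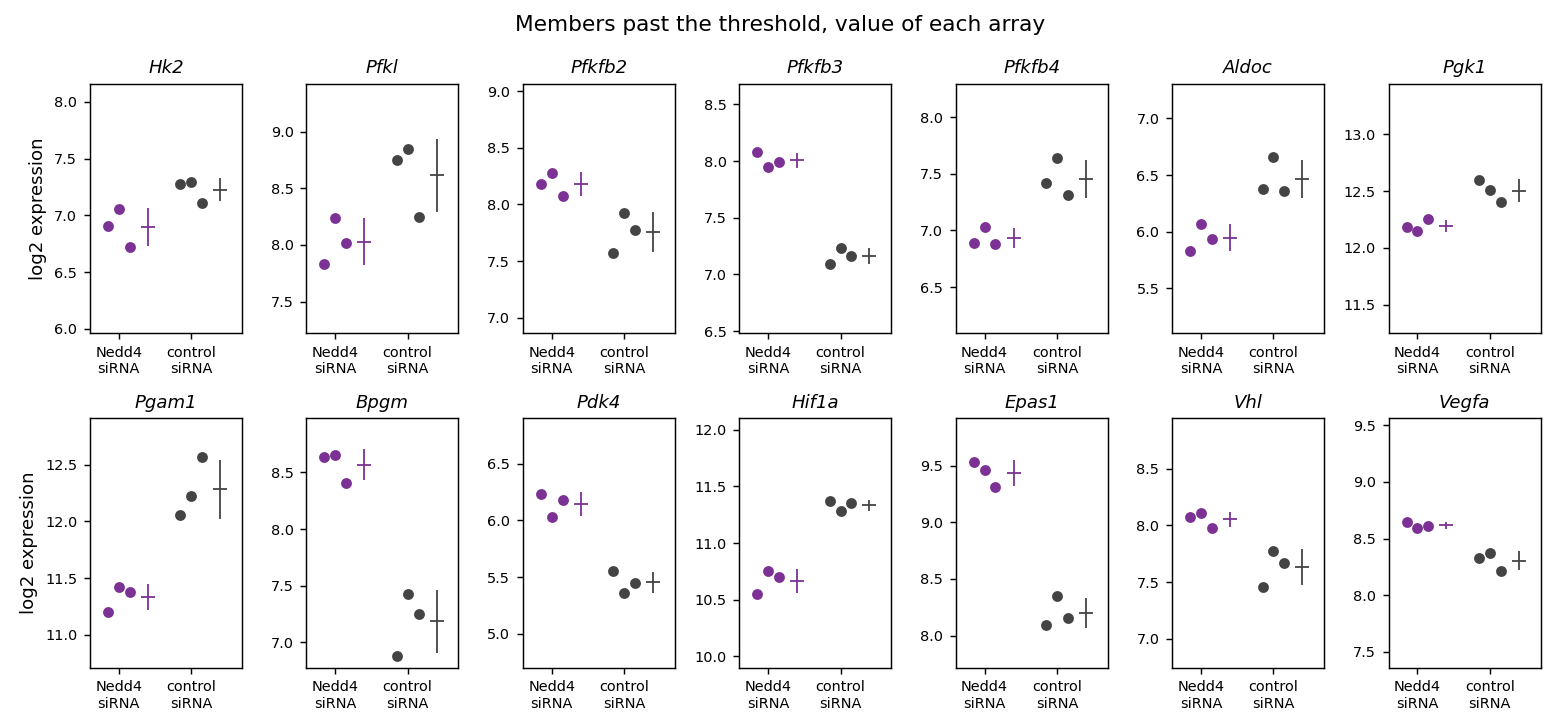
log2 expression of the 14 genes called changed, 1 panel per gene, with the 3 Nedd4 siRNA arrays (purple) left of the 3 control siRNA arrays (grey), replicates 1 to 3 from left to right, and the group mean with its SD beside them. Every panel spans the same range, the group means are farthest apart for Bpgm, Epas1 and Pgam1, and the arrays of the groups come closest for Pfkl, at 8.24 and 8.25.

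The enolases, pyruvate kinase and lactate dehydrogenases, which finish the pathway, gave no call with limma or the methods' t-test, and 2 of the 5, Eno3 and Ldhb, had an unadjusted limma p under 0.05. Eno3, the muscle enolase, was at 10.40, 10.69 and 10.43 on the Nedd4 siRNA arrays, against 10.81, 10.94 and 10.59 on the control arrays, with overlapping groups (−0.27, SE 0.11, limma adjusted p = 0.143). Eno2, the neuronal enolase, differed by −0.05 at a level below the median of all probesets, and Eno1 had no probeset used here. Pkm, pyruvate kinase of muscle and growing cells, was at 11.79, 11.91 and 11.81 on the Nedd4 siRNA arrays, against 11.71, 11.80 and 11.44 on the control arrays, again overlapping (0.19, limma adjusted p = 0.312). Its second probeset gave 0.25 and did not pass either. Ldha, the lactate dehydrogenase subunit that favours lactate, differed by 0.15 (95% interval −0.07 to 0.37). Ldhb, the subunit that favours pyruvate, was at 5.33, 5.53 and 5.36 on the Nedd4 siRNA arrays, against 5.55, 5.69 and 5.75 on the control arrays, below the median of all probesets. Its groups missed each other by 0.02 and the difference of −0.26 did not pass (limma adjusted p = 0.0963).

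The pyruvate dehydrogenase kinases PDK1 to PDK4 phosphorylate pyruvate dehydrogenase and hold pyruvate out of the mitochondrial cycle. Pdk4, the isozyme induced by fasting and glucocorticoids in other tissues, was at 6.23, 6.03 and 6.18 on the Nedd4 siRNA arrays, against 5.55, 5.36 and 5.45 on the control arrays. The groups were apart by 0.48 at a level below the median of all probesets, and Pdk4 was 1.62-fold higher (0.69, SE 0.094, limma adjusted p = 0.000267). Pdk1, a HIF target, was at 7.66, 7.84 and 7.37 on the Nedd4 siRNA arrays, against 7.01, 7.48 and 7.21 on the control arrays. These groups overlapped, and the difference of 0.39 (SE 0.14) missed the threshold (limma adjusted p = 0.0788), though it passed without Nedd4 siRNA replicate 3 or control siRNA replicate 2. Pdk2 and Pdk3 differed by 0.15 and −0.02 and did not pass.

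Among the HIF subunits, the mRNAs of the main alpha subunits moved in opposite directions. Hif1a, which encodes HIF-1 alpha, was at 10.55, 10.75 and 10.70 on the Nedd4 siRNA arrays, against 11.37, 11.28 and 11.35 on the control arrays. The groups were apart by 0.53, more than 5 times the SD of either. Hif1a averaged 10.67 ± 0.10 after Nedd4 siRNA and 11.33 ± 0.047 after control siRNA (SD, n = 3 each), 1.59-fold lower (−0.67, SE 0.090, limma adjusted p = 0.000257). Epas1, which encodes HIF-2 alpha, was at 9.53, 9.46 and 9.31 on the Nedd4 siRNA arrays, against 8.09, 8.35 and 8.16 on the control arrays. Every Nedd4 siRNA array lay almost 1 or more above every control array. Epas1 averaged 9.43 ± 0.11 after Nedd4 siRNA and 8.20 ± 0.13 after control siRNA (SD, n = 3 each), 2.35-fold higher (1.23, SE 0.10, limma adjusted p = 7.10e-06). Hif3a, the third alpha subunit, differed by −0.09, and the partner subunits Arnt and Arnt2 by −0.04 and −0.02, with 95% intervals of −0.23 to 0.15 and −0.23 to 0.19, and none passed.

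Of the genes that mark the alpha subunits for removal or silence them, only Vhl passed. Vhl, the substrate receptor of the ubiquitin ligase that takes hydroxylated HIF alpha, was at 8.07, 8.11 and 7.98 on the Nedd4 siRNA arrays, against 7.46, 7.77 and 7.67 on the control arrays. The groups did not overlap, and Vhl was 0.42 higher (SE 0.099, limma adjusted p = 0.0107), a call lost by a little without Nedd4 siRNA replicate 1 (adjusted p = 0.0531). Egln2, the prolyl hydroxylase PHD1, was at 8.89, 8.89 and 8.86 on the Nedd4 siRNA arrays, against 8.76, 8.83 and 8.40 on the control arrays. Control siRNA replicate 3 was far below the other arrays, and the difference of 0.22 did not pass (limma adjusted p = 0.262). Egln1 and Egln3, the prolyl hydroxylases PHD2 and PHD3, differed by −0.07 and 0.11. Hif1an, the asparagine hydroxylase that blocks HIF transactivation, differed by −0.04, and none of the 3 passed.

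The 4 listed HIF targets outside glycolysis gave 1 call. Vegfa, the vascular growth factor, was at 8.65, 8.59 and 8.61 on the Nedd4 siRNA arrays, against 8.33, 8.37 and 8.21 on the control arrays. The groups were apart by 0.22 and Vegfa was 0.31 higher (SE 0.086, limma adjusted p = 0.0254), but the call was lost without any 1 of the Nedd4 siRNA arrays or without control siRNA replicate 3, with adjusted p up to 0.126. Ankrd37, an ankyrin repeat gene induced by HIF-1, was at 5.99, 5.80 and 5.93 on the Nedd4 siRNA arrays, against 6.02, 6.06 and 6.10 on the control arrays. Those groups were 0.03 apart, and the difference of −0.15 did not pass (limma adjusted p = 0.332). Bnip3, a mitophagy receptor, differed by −0.15, with control siRNA replicate 3 high at 10.53 among arrays otherwise between 9.84 and 10.02. Its other probeset, numbered among genes of its own chromosome, gave −0.16. Car9, a carbonic anhydrase that is among the most HIF-dependent genes in tumours, was at 5.15, 5.16 and 5.24 on the Nedd4 siRNA arrays, against 5.27, 5.03 and 5.12 on the control arrays. These values overlap below the median of all probesets, and without detection calls it is not known whether Car9 was above background.

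3 pairs of functionally linked genes that moved oppositely, chosen after their values were seen, were also compared within each array. Each array's log2 difference between the pair was set relative to the mean of the control arrays, so that only its change carries meaning. Epas1 over Hif1a stood at 2.11, 1.84 and 1.74 on the Nedd4 siRNA arrays, against −0.15, 0.20 and −0.06 on the control arrays. Bpgm over Pgam1 stood at 2.54, 2.33 and 2.13 on the Nedd4 siRNA arrays, against −0.08, 0.31 and −0.22 on the control arrays. Pfkfb3 over Pfkfb4 stood at 1.49, 1.22 and 1.41 on the Nedd4 siRNA arrays, against −0.03, −0.11 and 0.15 on the control arrays. For all 3 pairs the groups stood far apart, with mean shifts of 1.90, 2.33 and 1.37. The exact two-sided permutation test gave p = 0.1 for each, which is the smallest value that 3 arrays against 3 allow, and since each pair was picked for its difference these p-values are a description.

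**Figure D3:**
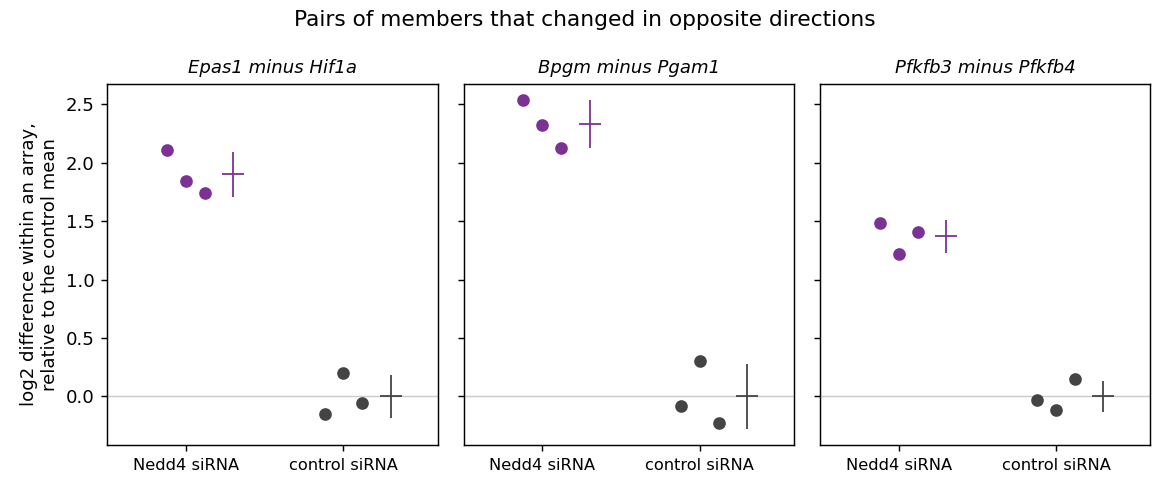
log2 difference between the genes of a pair within each array, relative to the mean of the control arrays, for the 3 Nedd4 siRNA arrays (purple, left) and the 3 control siRNA arrays (grey, right), with group mean and SD. The Nedd4 siRNA means are 1.90 for Epas1 minus Hif1a, 2.33 for Bpgm minus Pgam1 and 1.37 for Pfkfb3 minus Pfkfb4.

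A further 86 genes of glucose metabolism and the HIF pathway were listed by function, and 80 were measured. Of these, 24 (30%) changed, 16 higher and 8 lower, against the 18.7% of all genes, and 23 of the 55 above the median of all probesets changed, against 33.4% of genes that bright. The methods' t-test called 12 of the 80, beside 9.05% of all genes. Leaving out Nedd4 siRNA replicate 1 or control siRNA replicate 3 reduced the higher calls to 9 and 10. None of 12 other isozymes of the same steps, tissue-restricted forms that all lay below the median, was called by limma or by the methods' t-test, and 1 had an unadjusted limma p under 0.05. The smallest p among them belonged to Gapdhs (−0.20, limma adjusted p = 0.192), the sperm form, and Ldhc (0.12, limma adjusted p = 0.463), the testis form.

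Of 12 genes of pyruvate and lactate transport and of pyruvate dehydrogenase, 3 rose and none fell. All 3 were among the 10 above the median of all probesets, a share near the 33.4% of genes that bright, and 2 of them, Pdp1 and Dld, were also called by the methods' t-test. Pdp1, the phosphatase that removes the phosphate PDKs add, was at 9.67, 9.55 and 9.62 on the Nedd4 siRNA arrays, against 8.51, 8.55 and 8.27 on the control arrays. The groups were 1 apart, and Pdp1 was 1.17 higher (SE 0.097, limma adjusted p = 8.34e-06), so that a kinase and a phosphatase of the same enzyme, Pdk4 and Pdp1, both rose. Dld, the E3 subunit of the complex, was 0.48 higher (limma adjusted p = 0.00299), and Pdhb, an E1 subunit, 0.33 higher (limma adjusted p = 0.0439), a call lost without any of 4 arrays (Nedd4 siRNA replicates 1 and 2, control siRNA replicates 1 and 3). In the pentose phosphate pathway, 2 of 6 genes were called (33.3%). All 6 lay above the median of all probesets, so this share is near the 33.4% of genes that bright. The epimerase gene Rpe was 0.72 higher (limma adjusted p = 0.000111) and the isomerase gene Rpia fell by 0.78 (limma adjusted p = 0.00155), and the other 4 did not pass. The methods' t-test called Rpe (adjusted p = 0.0148) but not Rpia (adjusted p = 0.106).

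Gluconeogenesis and glycogen genes changed in 7 of 16, 2 higher and 5 lower, and all 7 were among the 12 above the median of all probesets, beside 18.7% of all genes and 33.4% of genes that bright. These 7 calls did not depend on any 1 array, and the methods' t-test called 4 of them, Fbp1, Gyg, Pgm2 and Ugp2. Fbp1, the fructose bisphosphatase that runs the phosphofructokinase step backwards, was at 9.04, 9.49 and 9.15 on the Nedd4 siRNA arrays, against 10.67, 10.63 and 10.84 on the control arrays. The groups were apart by more than 1, and its difference of −1.49 (SE 0.12, limma adjusted p = 6.40e-06) was the largest of all listed pathway genes. Fbp2, its muscle isozyme, also fell (−0.51, limma adjusted p = 0.00248), as did Gyg, the glycogen primer glycogenin (−0.72, limma adjusted p = 0.000177), and Pgm1, a phosphoglucomutase gene (−0.51, limma adjusted p = 0.00264). The methods' t-test missed Fbp2 and Pgm1 narrowly (adjusted p = 0.0513 and 0.0531). Both higher genes stand outside the naming rule and were named after their values were seen. Pgm2, another phosphoglucomutase gene, was 0.43 higher (limma adjusted p = 0.00393), opposite to Pgm1, and Ugp2, which makes the UDP-glucose for glycogen, was 0.44 higher (limma adjusted p = 0.00415).

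Of 11 genes of HIF ubiquitination and coactivation, 2 rose (18.2%), beside 18.7% of all genes. Both were among the 10 above the median of all probesets, beside 33.4% of genes that bright. Usp20, a deubiquitinase that acts on HIF-1 alpha, was 0.60 higher (limma adjusted p = 0.01998), a call lost without Nedd4 siRNA replicate 1 or control siRNA replicate 3 and in the methods' t-test (adjusted p = 0.261). Elob, the elongin B of the VHL complex, was 0.29 higher (limma adjusted p = 0.0340) and passed with only control siRNA replicate 2 left out. Of 23 other known HIF targets 10 changed (43.5%), 8 higher and 2 lower, and 9 of the 10 were among the 17 above the median of all probesets, beside 18.7% of all genes and 33.4% of genes that bright. The higher calls fell to 4 without Nedd4 siRNA replicate 1 and to 5 without Nedd4 siRNA replicate 2, Nedd4 siRNA replicate 3 or control siRNA replicate 3, and the methods' t-test called 4 of the 10. The 4 with the smallest p were split by direction. Ak4, a mitochondrial adenylate kinase, differed by −0.79 (limma adjusted p = 0.00333) and Mxi1, a MYC antagonist, by −0.42 (limma adjusted p = 0.00489). Ero1a, an oxidase of the endoplasmic reticulum, was 0.47 higher (limma adjusted p = 0.00356) and Ddit4, an inhibitor of mTORC1, 0.45 higher (limma adjusted p = 0.00544). Of these 4, the methods' t-test called Mxi1 (adjusted p = 0.0349) and missed Ero1a (0.0517), Ddit4 (0.0644) and Ak4 (0.1495).

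**Figure D4:**
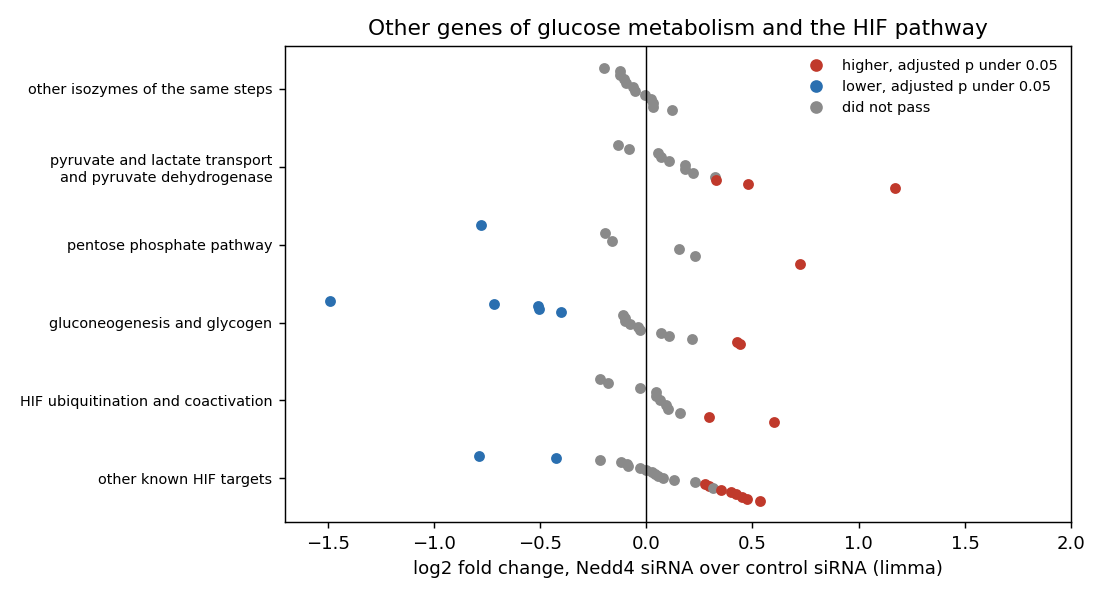
Difference in log2 expression, Nedd4 siRNA minus control siRNA, of 80 other genes of glucose metabolism and the HIF pathway, 1 row per list, coloured by the limma call. Fbp1 at −1.49 and Pdp1 at 1.17 are the ends of the range, and none of the 12 other isozymes of the same steps was called.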

How the data were processed

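Expression was measured on Affymetrix GeneChip Mouse Gene 1.0 ST arrays, 1 per culture, with 3 biological replicates per siRNA and cDNA made from 300 ng of RNA. The authors made the deposited log2 values of 28440 probesets in Partek (version 6.5 per the labels) by correcting for background (RMA) and for probe GC content and averaging the probes of each probeset. The values hold no detection calls, so whether a dim gene was above background is unknown, and precision is limited by there being 3 arrays per group. No further normalization was applied. Of the probesets, 21780 name 1 gene, 1618 several and 5042 none.

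Differences were tested in R 4.3.3 with limma 3.58.1 (lmFit and eBayes at default settings, all 6 arrays, no covariate, two-sided, Benjamini-Hochberg adjustment over all probesets), tested on simulated data. Tables and figures used Python 3.11.15, pandas 2.3.3, NumPy 2.4.6 and Matplotlib 3.10.9. The methods name an ANOVA with step-up adjustment. With 1 factor, the siRNA, it is called the methods' t-test and was run as an alternative. Other alternatives were eBayes with trend and robust, array weights, a replicate block, quantile normalization, median centring, filters on dim probesets, averaging all probesets of a gene, testing only probesets with 1 symbol, a stricter adjusted p of 0.01 and leaving out each array. The probeset numbered among the gene's own chromosome was added after seeing the data. Members and lists were chosen with earlier results of these data known. By the naming rule, called members and the 8 uncalled ones with the smallest p have a value per array, and each further list gives up to 4 called genes, or 2 where none was called.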

Additional observations from a re-analysis of the deposited data

How the results depend on the processing

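Without the own-chromosome probeset, which was added after seeing the data, the alternatives gave 627 values of the measured members. Of these, 575 kept their direction and side of the threshold, 30 lost the call and 10 gained one. A further 12 changed sign, none of these past the threshold in either fit. All 222 values of the 14 called members kept their direction. Pfkfb3, Bpgm, Hif1a and Epas1 were called under every alternative, and Pdk4 wherever it was tested. The methods' t-test called 2134 probesets, 1804 genes (9.05%) and 6 members, with 1 lower (Hif1a), and 12 other pathway genes (9 higher, 3 lower). It lost Pgam1 (adjusted p = 0.0542), Pfkfb4, Pgk1, Aldoc, Vhl, Pfkfb2, Hk2 and Pfkl. Among probesets not used by the rule, the other Pgam1 probesets passed the methods' t-test as lower (adjusted p = 0.0384). The own-chromosome probeset of Hk1 also passed it as lower (adjusted p = 0.0298), and that of Pgk1 did not (adjusted p = 0.123). An adjusted p under 0.01 left 2881 probesets, 2362 genes, 8 members (4 higher, 4 lower) and 9 higher calls among other pathway genes. Leaving out each array in turn gave 2962 to 4312 probesets, 2418 to 3490 genes, 8 to 13 members (4 to 8 higher, 4 to 7 lower) and 17 to 23 other pathway genes (9 to 15 higher, 8 lower each time). The lowest counts came without Nedd4 siRNA replicate 1, which lost Hk2, Pfkl, Pfkfb2, Pgk1, Vhl and Vegfa. With 1 array fewer the test has fewer samples.

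Hk1 turned to −0.21 with the mean of its probesets and did not pass. With the own-chromosome probeset, added after seeing the data, it turned to −0.51 and passed (limma adjusted p = 0.00164). Array weights turned Arnt2 to 0.0012 and Hif1an to 0.037, and called 18 members, with Tpi1, Eno3, Ldhb and Pdk1 gained. Over the fits that left out 1 array, Pdk3 ranged from −0.057 to 0.0083, Eno2 from −0.11 to 0.055, Arnt2 from −0.09 to 0.06, Hif1an from −0.18 to 0.028, Car9 from −0.01 to 0.11 and Bnip3 from −0.29 to 0.055. Hk2 was also lost with trend and robust and with median centring. Without the dimmest 50% of probesets, Aldoc and Pdk4 were not tested. Where no cause is named, the cause was not tested.

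Arrays numbered 2 deviated together (correlation 0.47), but those numbered 1 and 3 did not (−0.012 and −0.013), so the numbers were not taken as pairs. Between Nedd4 siRNA and control siRNA arrays of unlike number the correlations ran from −0.426 to 0.415. With the replicate block, 16 members (Tpi1 and Pdk1 gained) and 20.1% of genes were called.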

Other observations

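Markers of other cell types were read for the same arrays. Of 6 neuronal markers measured only Tubb3 changed (0.35 higher), and their summed linear level was 314 to 325 on the Nedd4 siRNA arrays, against 288 to 318 on the control arrays. None of 5 melanocyte markers was called by limma or the methods' t-test (1, Mitf, at an unadjusted limma p under 0.05). Their summed levels were 476 to 502 on the Nedd4 siRNA arrays, against 417 to 442 on the control arrays. Mitf, the only marker of the 5 above the median of all probesets, weighs most in this sum (difference 0.28, limma adjusted p = 0.0572). The 5 haematopoietic and endothelial markers all lay below the median of all probesets and none was called by either test or had an unadjusted limma p under 0.05, at 194 to 219 on the Nedd4 siRNA arrays, against 195 to 219 on the control arrays.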
